A study of Mus musculus with 35 samples.

Results

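Epiblast taken at embryonic day (E) 5.5, just after implantation, was compared with epiblast taken at E4.5, while the blastocyst implants. RNA was sequenced in bulk, from pooled hand-picked cells at E4.5 and pooled dissected tissue at E5.5. Each stage had 3 libraries, so 6 of the 35 samples of the series entered the comparison. A gene was kept when it lay on an autosome and had more than 2 TPM (transcripts per 1000000 transcripts, a level scaled for gene length and for the library's total) in at least 3 of the 6 libraries, which left 12578 of 54446 genes, among them 10581 protein-coding genes and 314 genes for long non-coding RNA. Changes are given as the difference between the stage means of log2(TPM + 1), E5.5 minus E4.5, with its standard error (SE). A gene was said to rise or fall when this log2 difference exceeded 1 in size and limma, fitted across all 12578 genes, gave an adjusted p below 0.05. The spread behind each SE and p-value was estimated from all 15 in vivo libraries, E3.5 to E7.5. For a gene of low level the added 1 makes the log2 difference smaller than the change in TPM.

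The labels give every embryo as wild type, CD-1, of male and female sex and untreated. Each library held RNA pooled from several embryos, by the methods more per library at E4.5 than at E5.5. The methods name both CD-1 and the reporter line Pdgfrα:H2B-GFP as sources and leave the sex undetermined. They describe the reporter line at E4.5, which the labels give as CD-1, and do not say which line gave the E5.5 libraries. For E4.5 the study removed the trophectoderm by immunosurgery with antibody and serum at body temperature, took the inner cell mass apart in warm trypsin and picked single cells by hand, using the reporter to leave out the green primitive endoderm cells. For E5.5 the embryo was kept in cold enzyme-free buffer, its visceral endoderm was stripped off, and its extra-embryonic ectoderm was cut away. RNA was heated for 6 min at 85 °C to fragment it in the E4.5 libraries and for 4 min at 94 °C in the E5.5 libraries. Stage, isolation, the number of embryos pooled and fragmentation therefore changed together and cannot be told apart in this comparison. The mouse line may have changed with them. The p-values measure only the spread among libraries of the same stage.

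Before implantation the epiblast is a small ball of cells in naive pluripotency, a state upheld by a circuit of transcription factors that includes the Klf factors, Esrrb and Tfcp2l1 and is fed by LIF acting through STAT3. Around implantation the cells leave this state, become a polarised epithelium around a lumen and enter the formative state, in which Otx2, Pou3f1 and the de novo DNA methyltransferases act, while Pou5f1 and Sox2 stay on. FGF, Nodal and Wnt signals then prepare the epiblast for the primitive streak, where cells leave the epithelium to form mesoderm and endoderm.

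The labelled tissue was checked against defining genes. Pou5f1, Sox2, Nanog and Sall4 were present in all 6 libraries, and the 8 core pluripotency genes summed to 1084 to 1114 TPM at E4.5 and 1272 to 1388 TPM at E5.5. Genes of trophectoderm and its derivative, the extra-embryonic ectoderm, were high at E4.5: the 12 markers summed to 2921 to 3109 TPM there, against 341 to 374 TPM at E5.5 and 3345 to 3402 TPM in the E3.5 inner cell mass. Of the 10 tested, all 10 fell. Krt18, a keratin of simple epithelia, had 1744, 1651 and 1603 TPM at E4.5 and 202, 235 and 219 TPM at E5.5. Elf5 had 124, 126 and 130.02 TPM at E4.5 and 5.06, 2.86 and 3.88 TPM at E5.5, and Gata3, a trophectoderm transcription factor, 85.1, 84.6 and 93.7 TPM at E4.5 and 1.42, 1.31 and 1.22 TPM at E5.5. The E4.5 libraries thus carried epiblast and trophectoderm transcripts side by side. In pooled samples fewer cells of a type and less RNA per cell cannot be told apart. None of the 12 was at 0 in all libraries of either stage.

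Genes of primitive and visceral endoderm went the other way. The 16 markers summed to 1024 to 1120 TPM at E4.5 and 1606 to 1734 TPM at E5.5, and 8 of 16 rose while 0 fell (at an unadjusted p under 0.05, limma gave 10 higher and 1 lower). The gain lay in genes of mature visceral endoderm. Apoa1, an apolipoprotein, had 0, 1.51 and 0.851 TPM at E4.5 and 346, 376 and 354 TPM at E5.5. Afp, encoding alpha-fetoprotein, was listed at 0 in every E4.5 library and had 75.5, 83.1 and 84.2 TPM at E5.5. Early endoderm regulators were present at both stages without passing the test, with Gata6 at 7.60 to 9.48 TPM at E4.5 and 7.44 to 8.99 TPM at E5.5 and Sox17 at 9.99 to 17.2 and 13.4 to 14.1 TPM. Amn and Pdgfra passed by a narrow margin and lost their calls with median-of-ratios rescaling and without E4.5 replicate 3. Pdgfra lost it too without E5.5 replicate 1, with correction for gene length and with TPM relative to autosomal protein-coding genes without histones. Markers of maternal decidua and blood were near 0, with 11 genes summing to 1.93 to 4.84 TPM at E4.5 and 4.14 to 6.66 TPM at E5.5. The part of these other cell types in the results that follow was not tested.

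**Figure D1:**
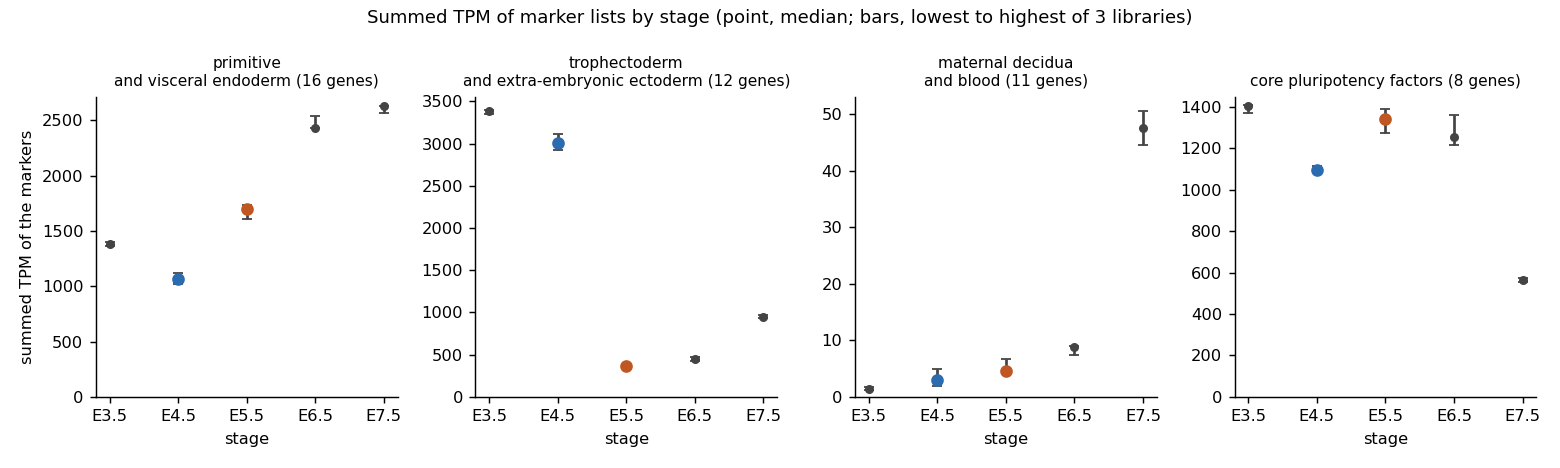
Summed TPM of marker genes for endoderm, trophectoderm, maternal tissue and the core pluripotency genes (y axis) at 5 stages (x axis); points are medians of 3 libraries and bars run from the lowest to the highest library. The trophectoderm sum drops from 2921 to 3109 TPM at E4.5 to 341 to 374 TPM at E5.5, while the endoderm sum climbs from 1024 to 1120 TPM to 1606 to 1734 TPM.

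The libraries of a stage were close to each other. The median absolute difference in log2(TPM + 1) between libraries of the same stage was 0.219 to 0.247 at E4.5 and 0.117 to 0.147 at E5.5. TPM sums to 1000000 in each library and keeps no read depth, so the depth is unknown. More genes had a TPM above 0 at E5.5 (23513 to 24842) than at E4.5 (20324 to 20806). Mitochondrial transcripts took 17.2 to 18.6% of the TPM at E4.5 and 9.84 to 10.4% at E5.5, and transcripts annotated as ribosomal RNA 17.6 to 19.05% and 10.8 to 11.3%. The ribosomal share includes the mitochondrial ribosomal RNAs, so the shares overlap and their changes are not separate.

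From E4.5 to E5.5, 1815 genes rose (14.4% of those tested) and 1246 fell (9.91%). Each count of rises and falls in a gene list below is to be read beside these shares. Counts at an unadjusted p, or at an adjusted p without the limit on size, have no such share here. Of the genes called, 3022 had no overlap between the libraries of both stages, against 61.6% of all genes tested. The largest falls outnumbered the largest rises: 205 genes fell by more than 3 on the log2 scale and 123 rose by more than 3. The median log2 difference over all genes tested was 0.15, and 59.3% of the calls were rises. This split moved with the scaling: with TPM rescaled by the median of gene ratios the median was 0.02 and 52.1% of the calls were rises, and with the trend over gene length removed the median was -0.01 and 50.3% were rises. For comparison, the steps on either side had fewer calls. From E3.5 to E4.5, 829 genes rose (6.59%) and 1164 fell (9.25%), and from E5.5 to E6.5, 53 rose (0.421%) and 167 fell (1.33%); both steps share libraries with the implantation step.

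**Figure D2:**
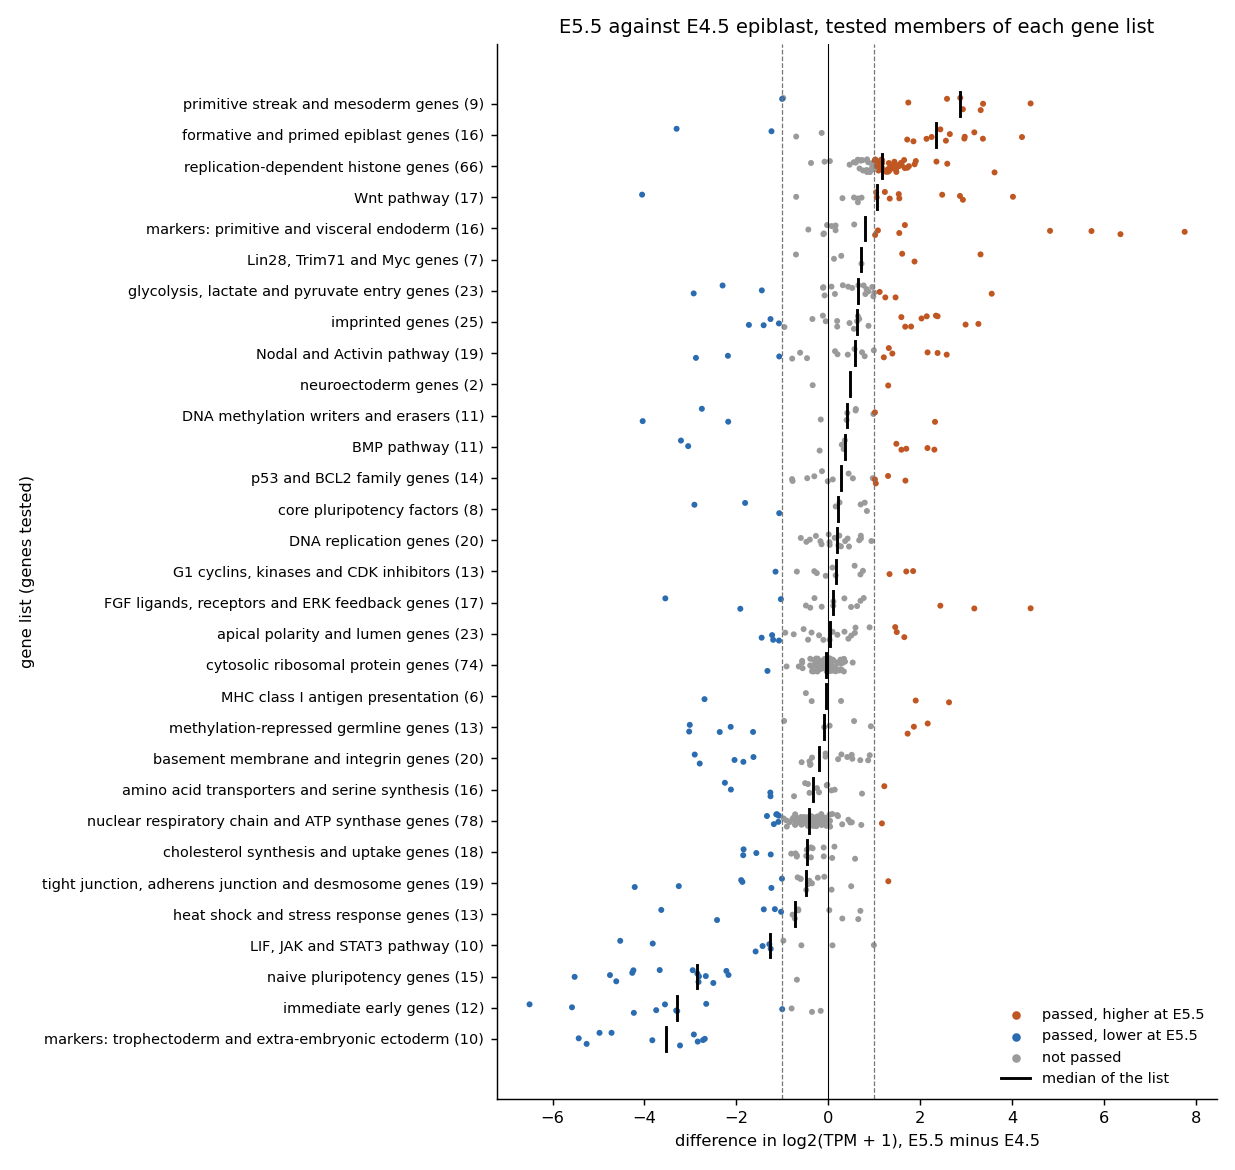
Log2 difference between E5.5 and E4.5 (x axis) for every tested gene of each list (y axis, number of tested genes in brackets); orange points passed as higher, blue as lower, grey did not pass, and the black tick is the list's median. Medians run from -3.53 for the trophectoderm markers to 2.87 for the primitive streak genes, against 0.15 for all genes tested.

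Genes of the naive circuit fell together. Of 15 tested, 14 fell and 0 rose (at an unadjusted p under 0.05, 15 were lower and 0 higher), with a median log2 difference of -2.85 against 0.15 for all genes. Klf2, a Krüppel-like factor of the naive state, had 78.6, 61.3 and 58.1 TPM at E4.5 and 0.511, 0.677 and 0.196 TPM at E5.5. Its log2 difference was -5.52 ± 0.19, adjusted p = 7.1e-11. Zfp42, also known as Rex1 and used as a reporter of naive pluripotency, had 209, 195 and 198 TPM at E4.5 and 6.72, 7.40 and 7.57 TPM at E5.5 and fell by 4.61 ± 0.10 on the log2 scale (adjusted p = 2.1e-12). In both genes the lowest E4.5 library stood far above the highest E5.5 library.

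The other members differed in how much was left at E5.5. Tcl1, a co-activator of AKT, was listed at 0 in all E5.5 libraries after 6.19, 5.17 and 7.00 TPM at E4.5, and the nuclear receptor Nr5a2 kept 0.0926 to 0.142 TPM of 6.24 to 9.18 TPM. Esrrb, an orphan nuclear receptor, kept more, with 63.3, 68.8 and 60.2 TPM at E4.5 and 9.46, 6.56 and 8.29 TPM at E5.5, a 7.91-fold lower mean. Klf5 had 252, 234 and 247 TPM at E4.5 and 12.4, 11.5 and 11.96 TPM at E5.5, and Klf4 54.3, 61.3 and 59.1 TPM at E4.5 and 3.30, 3.87 and 3.80 TPM at E5.5. Tbx3 was the gene of the list that did not pass, with 16.9, 21.4 and 20.1 TPM at E4.5 and 11.4, 12.3 and 11.4 TPM at E5.5. It was already low at E4.5 beside its mean of 135 TPM in the E3.5 inner cell mass. Tfcp2l1 and Dppa3 showed the same early drop, from means of 169 and 355 TPM at E3.5 to 28.5 and 34.1 TPM at E4.5 and 3.65 and 6.83 TPM at E5.5. Prdm14 was not tested, at 0.949 to 1.00 TPM at E4.5 and 0 to 0.0566 TPM at E5.5. Gbx2 fell with the widest SE of the list (0.26), from 16.7, 8.61 and 10.6 TPM to 0.603, 0.264 and 1.80 TPM. Klf5 and Tfcp2l1 are also known in trophectoderm, whose markers fell at the same step, and the part of those cells in their values was not tested.

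**Figure D3:**
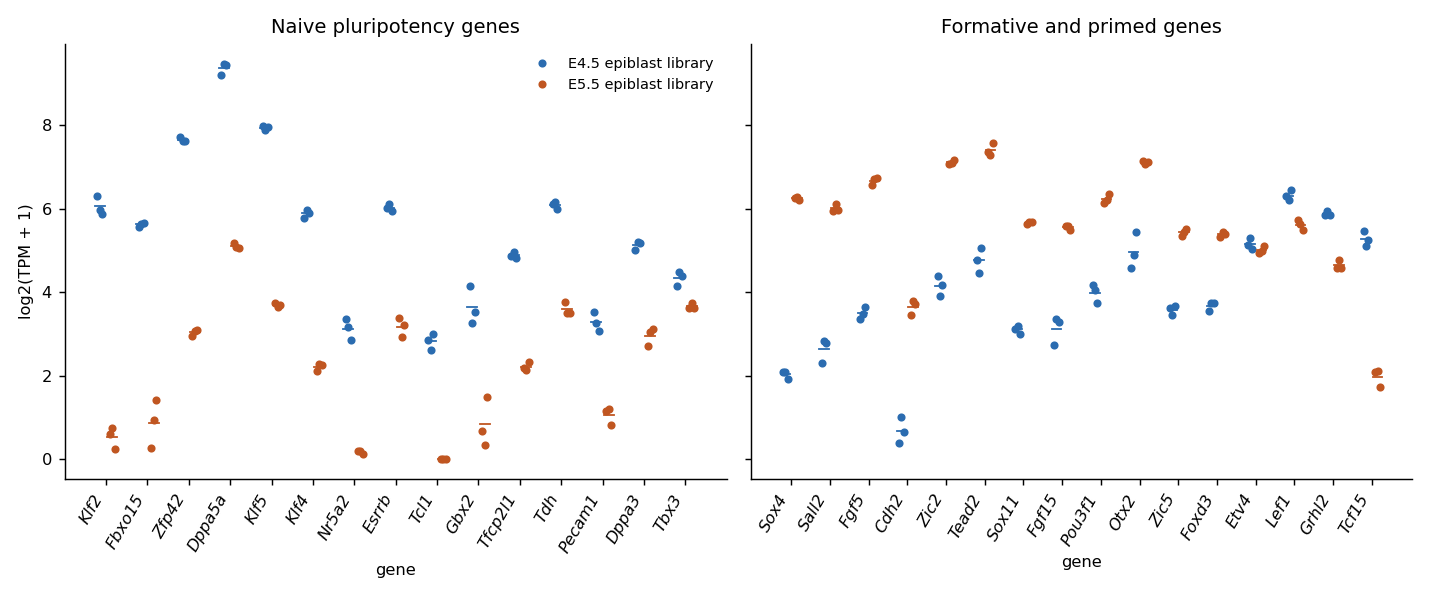
Log2(TPM + 1) (y axis) of the tested naive genes (left) and formative genes (right) in each E4.5 (blue) and E5.5 (orange) library; short lines are stage means. In the left panel 14 of 15 genes fell, and in the right panel 12 of 16 rose and 2 fell.

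The promoter of Zfp42 is shown because it is the window of a strongly lost naive gene that holds the octamer bound by POU factors such as Pou5f1. Promoter windows came from RefSeq (build GRCm38.p6) and covered 250 bases before to 50 bases after the gene start, and both strands were searched. Of the tested genes with a promoter in the table, 1.63% had the letters ATGCAAAT in at least 1 window, as did 2.25% of those that rose and 2.46% of those that fell. In the Zfp42 window (chr8:43306960-43307259, minus strand) the capitals mark the match, which reads ATTTGCAT on this strand, 186 to 179 bases before the start.
Zfp42: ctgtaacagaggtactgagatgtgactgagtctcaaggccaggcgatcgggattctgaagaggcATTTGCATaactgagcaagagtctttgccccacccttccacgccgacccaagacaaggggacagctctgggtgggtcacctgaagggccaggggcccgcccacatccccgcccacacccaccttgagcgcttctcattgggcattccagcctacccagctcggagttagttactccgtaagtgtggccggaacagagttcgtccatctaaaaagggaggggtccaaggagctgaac

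Core pluripotency genes split. Pou5f1, the POU factor required in all pluripotent cells, had 393, 419.8 and 378 TPM at E4.5 and 648, 693 and 722 TPM at E5.5, and Sox2 had 34.5, 28.7 and 37.4 TPM at E4.5 and 37.5, 34.5 and 40.4 TPM at E5.5; neither log2 difference (0.79 ± 0.07 and 0.16 ± 0.11) reached 1. Nanog stood at 11.3, 18.9 and 13.1 TPM at E4.5 and 25.6, 25.2 and 20.3 TPM at E5.5, with a log2 difference of 0.70 ± 0.16, adjusted p = 0.00190. Its mean at E3.5 was 87.9 TPM. Of the 8 genes 0 rose and 3 fell, the chromatin-associated paralogs Dppa2 and Dppa4 and the Nodal co-receptor Tdgf1 (at an unadjusted p under 0.05, 3 were higher and 3 lower). Dppa2 dropped from 49.4, 50.8 and 48.2 TPM to 5.25, 6.24 and 5.62 TPM and Dppa4 from 82.1, 95.8 and 102 TPM to 26.2, 24.7 and 26.4 TPM.

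Genes of the formative and primed epiblast rose. Of 16 tested, 12 rose and 2 fell, with a median log2 difference of 2.34. Fgf5, the ligand that marks post-implantation epiblast, had 9.30, 10.1 and 11.5 TPM at E4.5 and 94.2, 103 and 106 TPM at E5.5, a 9.79-fold higher mean (log2 difference 3.18 ± 0.13, adjusted p = 4.2e-10). Otx2, a homeobox factor of the formative state, had 22.7, 28.9 and 42.6 TPM at E4.5 and 141, 132 and 137 TPM at E5.5, and its partner Pou3f1 had 17.0, 15.6 and 12.5 TPM at E4.5 and 69.6, 73.3 and 81.3 TPM at E5.5. The E4.5 libraries spread more for Otx2 than the E5.5 libraries, and the stages did not overlap. Sox4, a SOX family factor, showed the largest rise of the list, from 3.25, 3.27 and 2.77 TPM to 75.1, 76.7 and 72.8 TPM (log2 difference 4.21 ± 0.14, adjusted p = 4.4e-11). Sall2, a zinc finger paralog of Sall4, rose from 3.96, 6.12 and 5.94 TPM to 61.0, 68.1 and 61.2 TPM. Cdh2, encoding N-cadherin, rose from 0.314, 1.02 and 0.570 TPM to 9.99, 12.8 and 12.2 TPM, a low level beside E-cadherin.

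The list was not uniform in time. Tcf15, a bHLH factor, was high at E4.5 and low after it, with 43.3, 33.5 and 37.3 TPM at E4.5 and 3.26, 3.33 and 2.31 TPM at E5.5. Grhl2, an epithelial transcription factor, fell from 56.2, 60.8 and 57.1 TPM to 22.8, 26.4 and 22.99 TPM. Lef1 was on at E4.5 already (78.2, 72.6 and 85.7 TPM), when its mean at E3.5 was 0.0581 TPM, and had 52.3, 48.4 and 43.7 TPM at E5.5, below the size needed. Etv4, an ETS factor downstream of FGF, had 34.0, 38.5 and 32.0 TPM at E4.5 and 29.6, 30.9 and 33.7 TPM at E5.5, with overlapping libraries. Fgf5, Pou3f1 and Otx2 had means of 0.0892, 0.514 and 2.72 TPM at E3.5, so their E4.5 means of 10.3, 15.04 and 31.4 TPM were above the earlier stage.

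Foxd3, a forkhead factor of the epiblast, rose from 10.7, 12.3 and 12.3 TPM to 39.0, 42.8 and 41.0 TPM. Its promoter window (chr4:99656049-99656348, plus strand, build GRCm38.p6) is shown beside that of Dusp1, given with the immediate early genes, because both hold the cAMP response element TGACGTCA and the genes changed in opposite directions. The capitals mark it, 233 to 226 bases before the start.
Foxd3: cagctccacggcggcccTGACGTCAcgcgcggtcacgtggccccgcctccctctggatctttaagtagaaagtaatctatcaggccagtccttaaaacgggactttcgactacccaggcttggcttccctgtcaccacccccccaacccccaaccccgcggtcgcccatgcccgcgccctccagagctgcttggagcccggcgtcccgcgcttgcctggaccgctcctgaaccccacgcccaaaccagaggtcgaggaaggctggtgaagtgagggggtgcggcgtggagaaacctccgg

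DNA methylation genes changed in both directions. Of 11 tested, 2 rose and 3 fell, beside 14.4% and 9.91% of all genes. Dnmt3b, a de novo DNA methyltransferase, had 468, 409.7 and 432 TPM at E4.5 and 2104, 2242 and 2200.0 TPM at E5.5, a 5.00-fold higher mean (log2 difference 2.32 ± 0.09, adjusted p = 1.4e-10). Dnmt3l, which has no catalytic activity and assists the de novo enzymes, had 290.4, 288 and 297 TPM at E4.5 and 16.1, 16.2 and 18.2 TPM at E5.5, a 17.3-fold lower mean (log2 difference -4.04 ± 0.16, adjusted p = 2.8e-10). Dnmt3a had 123, 108 and 123 TPM at E4.5 and 242, 252 and 209 TPM at E5.5, and its log2 difference of 0.98 ± 0.10 lay just inside the limit and passed it in 3 of the 15 alternatives. Maintenance genes moved less: Dnmt1 had 103, 102 and 89.0 TPM at E4.5 and 148, 155 and 142 TPM at E5.5, and Uhrf1 179, 153 and 171 TPM at E4.5 and 213, 222 and 228 TPM at E5.5.

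Among the TET enzymes, which oxidise methylcytosine, Tet2 fell from 22.4, 23.1 and 22.3 TPM to 2.75, 2.71 and 2.09 TPM, Tet1 had 98.6, 115 and 122 TPM at E4.5 and 100.2, 103 and 94.9 TPM at E5.5 with overlapping libraries, and Tet3 had 13.5, 12.6 and 6.95 TPM at E4.5 and 22.3, 22.1 and 22.9 TPM at E5.5. The Tet3 call (log2 difference 1.01 ± 0.19, adjusted p = 4.4e-04) was lost under 3 of the other scalings, which left 1 rise. It was also lost without E4.5 replicate 3 or E5.5 replicate 3, where Dnmt3a was called instead and the count stayed at 2. Zfp57, which protects methylation at imprints, fell from 87.2, 85.4 and 111 TPM to 19.7, 19.3 and 20.8 TPM, while its co-repressor Trim28 had 545, 513 and 467 TPM at E4.5 and 637, 676 and 715 TPM at E5.5.

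Genes for the receptors, the transducer and a feedback inhibitor of the LIF pathway fell. Of 10 genes tested, 6 fell and 0 rose (at an unadjusted p under 0.05, 8 were lower and 1 higher), with a median log2 difference of -1.27. Lifr, the LIF receptor, had 45.0, 34.2 and 39.7 TPM at E4.5 and 14.2, 13.9 and 13.8 TPM at E5.5, and its partner Il6st, encoding gp130, had 18.2, 17.8 and 23.1 TPM at E4.5 and 5.94, 5.83 and 5.84 TPM at E5.5. Il6ra, the interleukin 6 receptor chain, went from 11.2, 17.9 and 14.1 TPM to 0.112, 0.0690 and 0.0388 TPM. Stat3 itself had 22.2, 23.5 and 18.6 TPM at E4.5 and 7.81, 9.66 and 7.78 TPM at E5.5, and its E3.5 mean was 92.8 TPM. Socs3, a feedback inhibitor induced by STAT3, had 77.8, 70.6 and 72.3 TPM at E4.5 and 2.49, 2.23 and 1.98 TPM at E5.5, a 32.9-fold lower mean (log2 difference -4.53 ± 0.10, adjusted p = 2.2e-12). The ligand gene Lif was low at both stages, with 0.378, 0.824 and 0.861 TPM at E4.5 and 2.01, 2.88 and 2.13 TPM at E5.5. Its log2 difference was 0.99 ± 0.17, and it was called in 5 of the 15 alternatives. These were a pseudocount of 0.1 and the fits without E4.5 replicate 2, E4.5 replicate 3, E5.5 replicate 1 or E5.5 replicate 3. Jak1 too was called only in alternatives, 6 of the 15, but as lower at E5.5.

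On the scale of log2(TPM + 1) Socs3 fell most of the pathway, although Il6ra fell further by the ratio of TPM. The Socs3 promoter is shown with the STAT motif TTCNNNGAA. The window (chr11:117969317-117969616, minus strand, build GRCm38.p6) held it as TTCTTAGAA, 154 to 146 bases before the start, in capitals. At least 1 window held it in 8.00% of the tested genes with a promoter in the table, in 7.76% of those that rose and in 7.86% of those that fell.
Socs3: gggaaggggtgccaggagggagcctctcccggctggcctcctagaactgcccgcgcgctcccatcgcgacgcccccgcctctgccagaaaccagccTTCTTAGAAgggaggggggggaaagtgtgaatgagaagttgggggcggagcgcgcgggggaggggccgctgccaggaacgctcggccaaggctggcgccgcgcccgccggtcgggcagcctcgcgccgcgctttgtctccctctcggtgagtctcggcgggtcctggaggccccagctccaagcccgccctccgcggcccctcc

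FGF ligands changed over. Fgf4, the ligand made by the pre-implantation epiblast, fell from 48.9, 52.8 and 46.4 TPM to 12.5, 12.4 and 12.1 TPM, while Fgf5, Fgf8 and Fgf15 rose. Fgf8 had 5.21, 5.23 and 2.58 TPM at E4.5 and 105, 116 and 104 TPM at E5.5, a 24.97-fold higher mean (log2 difference 4.401 ± 0.21, adjusted p = 1.4e-09), and Fgf15 had 5.61, 9.19 and 8.70 TPM at E4.5 and 46.9, 47.3 and 43.8 TPM at E5.5. Receptors split: Fgfr1 had 47.0, 50.7 and 46.5 TPM at E4.5 and 55.4, 52.0 and 48.6 TPM at E5.5, with overlapping libraries, and Fgfr2, which is known in trophectoderm and primitive endoderm, fell from 92.4, 86.8 and 103 TPM to 6.38, 7.67 and 7.37 TPM. Over all 17 tested genes 3 rose and 3 fell, with a median of 0.11. Of all genes 14.4% rose and 9.91% fell, with a median of 0.15. Among the feedback genes of ERK signalling, Dusp6 went from 97.3, 112 and 98.0 TPM to 48.6, 47.8 and 52.1 TPM, a call that was lost without E4.5 replicate 2, and Spry4, with 16.4, 9.87 and 14.9 TPM at E4.5 and 23.5, 23.7 and 23.7 TPM at E5.5, and Etv5, with 70.4, 69.4 and 74.9 TPM at E4.5 and 107, 113 and 112 TPM at E5.5, did not pass.

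In the Nodal pathway 6 of 19 genes rose and 3 fell, beside 14.4% and 9.91% of all genes. Nodal, the ligand, had 7.85, 7.69 and 8.20 TPM at E4.5 and 15.8, 16.9 and 17.5 TPM at E5.5, with a log2 difference of 0.99 ± 0.15, just under the limit (passed in 3 of the 15 alternatives), and libraries that did not overlap. Its co-receptor Tdgf1 fell from 184, 172 and 168 TPM to 79.3, 90.5 and 79.1 TPM, while the related Cfc1 rose from 2.45, 1.02 and 0 TPM to 10.7, 13.3 and 7.77 TPM. The convertase Pcsk6, which processes Nodal, fell from 77.9, 78.2 and 73.5 TPM to 8.93, 8.86 and 10.9 TPM. The receptor Acvr2b and the transcription factor Foxh1, which carries the SMAD signal to DNA, rose from means of 29.1 to 77.1 TPM and 26.7 to 67.8 TPM. The feedback inhibitors differed, with Lefty1 at 4.94, 1.88 and 1.94 TPM at E4.5 and 6.84, 8.62 and 7.19 TPM at E5.5 and Lefty2 at 8.98, 8.27 and 8.90 TPM at E4.5 and 4.78, 3.86 and 5.35 TPM at E5.5. Lefty1 passed and Lefty2 did not. Gdf1 passed at low and scattered levels (0, 1.24 and 0 TPM at E4.5 and 7.91, 2.04 and 10.6 TPM at E5.5) and shares its locus with Cers1, so its reads are uncertain.

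Most of the tested Wnt pathway genes rose. Of 17 tested, 10 rose and 1 fell, with a median log2 difference of 1.05, beside 14.4% and 9.91% of all genes and a median of 0.15. Of the ligands, Wnt3, which is needed for the primitive streak, was listed at 0 in all E4.5 libraries and had 7.34, 6.90 and 5.68 TPM at E5.5. Wnt7b, the ligand that fell, had 57.0, 58.8 and 57.9 TPM at E4.5 and 2.06, 2.93 and 2.72 TPM at E5.5. Among the receptors Fzd2 rose from 0.546, 0.737 and 0.770 TPM to 27.2, 26.9 and 24.5 TPM (log2 difference 4.02 ± 0.10, adjusted p = 4.1e-12), and Fzd7, Fzd5 and Lrp5 rose from means of 30.1 to 88.6 TPM, 11.6 to 28.2 TPM and 23.2 to 60.2 TPM. Of the target genes, Sp5 went from 0, 0.162 and 0 TPM to 6.41, 7.11 and 6.46 TPM, and Axin2, the common readout of the canonical pathway, had 17.3, 21.6 and 18.5 TPM at E4.5 and 23.8, 24.7 and 23.02 TPM at E5.5 and did not pass. Nkd1 and Tcf7 were borderline, with log2 differences of 1.05 and 1.04 and calls lost under rescaling, Nkd1 also without E4.5 replicate 1 and Tcf7 without E4.5 replicate 3. Sfrp1, a secreted Wnt antagonist, rose from 4.95, 5.53 and 4.17 TPM to 31.7, 32.6 and 30.5 TPM.

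BMP ligands changed in opposite directions. Bmp4 fell from 48.8, 61.5 and 40.6 TPM to 3.97, 3.97 and 5.65 TPM, and Bmp2 rose from 0.900, 0.857 and 0.398 TPM to 6.61, 8.37 and 7.38 TPM. The signal carriers Smad1 and Smad5 rose from means of 7.37 to 23.5 TPM and 5.49 to 17.0 TPM. The target genes of the Id family each did something else: Id2 fell from 158, 167 and 180.4 TPM to 17.1, 20.7 and 20.7 TPM, Id3 rose from 10.0, 12.96 and 5.72 TPM to 42.0, 40.8 and 49.999 TPM, and Id1 had 29.3, 26.2 and 19.05 TPM at E4.5 and 31.5, 27.7 and 34.5 TPM at E5.5. Over the 11 tested genes 5 rose and 2 fell, beside 14.4% and 9.91% of all genes.

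Most tested primitive streak genes rose. Of 9 tested, 7 rose and 1 fell, with a median of 2.87; Fgf8 and Wnt3 belong to this list too. T, the mesoderm factor Brachyury, was listed at 0 at E4.5 and had 4.71, 4.42 and 5.93 TPM at E5.5, against a mean of 29.8 TPM at E6.5. Mixl1 rose from 0, 1.10 and 0.588 TPM to 9.55, 10.5 and 9.76 TPM and Gsc, encoding goosecoid, from 0, 1.15 and 0 TPM to 13.4, 10.2 and 13.5 TPM. Lhx1 and Gsc are also known in the anterior visceral endoderm, of which Cer1 was listed at 0 at E4.5 and had 27.8, 27.0 and 27.2 TPM at E5.5, and the part of that tissue was not tested. Eomes had 148, 154 and 160.2 TPM at E4.5 and 77.6, 74.4 and 80.8 TPM at E5.5. It was just short of a call at -0.98 ± 0.11 and was called in 5 of the 15 alternatives. Trophectoderm markers too were high at E4.5, and the part of those cells in the Eomes values was not tested. Snai1, a repressor of E-cadherin, had 13.97, 15.1 and 15.05 TPM at E4.5 and 7.72, 7.27 and 5.65 TPM at E5.5; its call rested on a log2 difference of -1.005 and was lost without E4.5 replicate 2, E4.5 replicate 3 or E5.5 replicate 3. Mesp1 was not tested, at 0 in all E4.5 libraries and 0.956 to 1.13 TPM at E5.5. Of the neuroectoderm genes, Sox1, Pax6, Pax2 and Six3 stayed under 1 TPM in all 6 libraries, Nes rose from a mean of 11.1 to 28.8 TPM, and Hesx1 had 6.01, 8.37 and 4.26 TPM at E4.5 and 5.52, 4.72 and 3.56 TPM at E5.5.

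The RNA-binding proteins Lin28a and Lin28b, which block maturation of let-7 microRNAs, rose. Lin28a had 76.8, 93.7 and 92.5 TPM at E4.5 and 312, 325 and 333 TPM at E5.5. Lin28b had 4.00, 3.44 and 4.32 TPM at E4.5 and 44.1, 47.8 and 51.4 TPM at E5.5, a 12.2-fold higher mean (log2 difference 3.31 ± 0.11, adjusted p = 6.7e-11). Within the MYC family Mycl rose from 6.66, 10.97 and 10.2 TPM to 30.3, 30.6 and 28.4 TPM, Myc had 80.1, 68.5 and 67.4 TPM at E4.5 and 79.1, 73.7 and 82.1 TPM at E5.5 with overlapping libraries, and Mycn had 123, 105 and 116 TPM at E4.5 and 129.7, 142 and 147 TPM at E5.5. Of the 7 genes tested 3 rose and 0 fell (5 higher and 1 lower at an unadjusted p under 0.05).

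Genes of apical polarity and lumen formation were on at both stages. Of 23 tested, 3 rose and 4 fell, with a median of 0.03. Of all genes 14.4% rose and 9.91% fell, with a median of 0.15. Podxl, the anti-adhesive sialomucin that coats the lumen surface, rose from 51.5, 52.1 and 42.5 TPM to 148, 161 and 155 TPM (log2 difference 1.65 ± 0.09, adjusted p = 4.5e-09). Ezr, which links membrane to actin, fell from 567, 529.8 and 544 TPM to 233, 239 and 228 TPM. A pair of paralogs moved in opposite directions: Llgl1 rose from 20.3, 19.2 and 17.7 TPM to 51.5, 52.8 and 57.6 TPM, and Llgl2 fell from 63.0, 58.8 and 61.6 TPM to 28.9, 28.6 and 28.0 TPM. Patj, of the Crumbs complex, rose from a mean of 13.99 to 40.9 TPM. The Par complex genes gave no call apart from Pard6g, with Prkci at 40.4, 32.6 and 37.9 TPM at E4.5 and 42.3, 41.0 and 43.9 TPM at E5.5 and Pard3 at 29.4, 28.0 and 26.1 TPM at E4.5 and 54.3, 53.1 and 50.6 TPM at E5.5 (log2 differences 0.20 and 0.90). Prkcz was called in 4 of the 15 alternatives and Pard6a in 1.

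Junction genes fell more often than they rose. Of 19 tested, 6 fell and 1 rose, with a median of -0.48. Cldn4, a claudin of tight junctions, fell from 256, 272 and 251 TPM to 14.4, 12.9 and 12.02 TPM (log2 difference -4.21 ± 0.13, adjusted p = 3.0e-11), Cldn3 from 76.6, 78.2 and 65.9 TPM to 5.80, 7.63 and 7.08 TPM and Ocln, encoding occludin, from 36.5, 34.4 and 31.1 TPM to 7.37, 8.28 and 9.65 TPM. Cldn6 was the claudin that rose, from 58.1, 42.8 and 48.5 TPM to 122, 120.3 and 129 TPM. Cdh1, encoding E-cadherin, had 296, 294 and 267 TPM at E4.5 and 265, 273 and 267 TPM at E5.5, and these libraries overlapped. The desmosome gene Dsp fell from a mean of 84.8 to 22.5 TPM; the Dsg2 call was borderline at -1.01 and was lost without E4.5 replicate 2 or E5.5 replicate 3. Trophectoderm is an epithelium with these junctions, its markers summed to 2921 to 3109 TPM at E4.5 and 341 to 374 TPM at E5.5, and their part in the falls was not tested.

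Basement membrane genes gave 5 falls and 0 rises among 20 tested (at an unadjusted p under 0.05, 10 were lower and 8 higher in limma). The chains of laminin-111 did not pass: Lama1 had 77.0, 73.3 and 76.2 TPM at E4.5 and 68.7, 74.0 and 74.4 TPM at E5.5, Lamb1 87.8, 83.9 and 80.6 TPM at E4.5 and 116, 122 and 122 TPM at E5.5 and Lamc1 93.8, 91.5 and 101 TPM at E4.5 and 106, 111 and 115 TPM at E5.5. Their E3.5 means were 334, 393 and 373 TPM. Nid1, which bridges laminin and collagen IV, fell from 204, 199.7 and 184 TPM to 24.8, 27.8 and 29.4 TPM (log2 difference -2.80 ± 0.09, adjusted p = 5.6e-11), and Col4a1 had 95.8, 104 and 92.0 TPM at E4.5 and 148, 163 and 163 TPM at E5.5. Of the receptors, Dag1, encoding dystroglycan, fell from 176, 170.0 and 167 TPM to 41.5, 40.4 and 40.5 TPM, Itgav from 32.3, 31.3 and 31.5 TPM to 9.69, 10.6 and 8.54 TPM, and neither laminin-binding integrin chain, Itgb1 or Itga6, passed. Itgb1 had 58.2, 62.9 and 61.8 TPM at E4.5 and 74.4, 72.4 and 76.3 TPM at E5.5, and Itga6 21.8, 30.9 and 25.6 TPM at E4.5 and 46.7, 51.0 and 49.7 TPM at E5.5. Fn1, encoding fibronectin, fell from 179, 169 and 154 TPM to 40.6, 49.5 and 47.3 TPM.

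The lactate genes Ldha, Ldhb and Slc16a3 rose, and Mpc1 and Mpc2, for mitochondrial pyruvate entry, fell. Ldha, which turns pyruvate into lactate, had 606, 629 and 718 TPM at E4.5 and 1772, 1787 and 1809 TPM at E5.5 (log2 difference 1.46 ± 0.10, adjusted p = 6.7e-08), and Ldhb had 4.61, 2.81 and 3.74 TPM at E4.5 and 52.7, 53.3 and 55.2 TPM at E5.5. Slc16a3, a lactate exporter, rose from 47.1, 59.7 and 68.4 TPM to 164, 155 and 103 TPM. Mpc1 and Mpc2, the subunits of the mitochondrial pyruvate carrier, fell from 27.0, 34.4 and 19.5 TPM to 2.01, 3.14 and 2.68 TPM and from 9.39, 13.2 and 14.2 TPM to 5.56, 2.35 and 4.04 TPM. In glycolysis itself most log2 differences were under 1: Gapdh had 739, 708 and 621 TPM at E4.5 and 1212, 1424 and 1502 TPM at E5.5, Pkm 1102, 1071 and 1098 TPM at E4.5 and 1871, 1890.5 and 1960.3 TPM at E5.5 and Eno1 1121, 1112 and 1149 TPM at E4.5 and 1800.4, 1979 and 1985 TPM at E5.5. Pseudogene copies make the Gapdh value uncertain. The glucose carrier Slc2a1 had 244, 251 and 239 TPM at E4.5 and 220.1, 227 and 233 TPM at E5.5, after a mean of 26.8 TPM at E3.5. Pfkp fell from a mean of 68.1 to 13.02 TPM, and Eno3 rose by 1.12, a call lost without E4.5 replicate 2 and with median-of-ratios rescaling. Of 23 tested genes 4 rose and 3 fell, beside 14.4% and 9.91% of all genes. At an adjusted p under 0.05 in limma without the limit on size, 14 were higher and 3 lower, with no share of all genes counted there.

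Genes of the respiratory chain lay below the median of all genes. Of 78 nuclear genes tested 6 fell and 1 rose, beside 9.91% and 14.4% of all genes, and the median log2 difference was -0.41. At an adjusted p under 0.05 in limma without the limit on size, 44 were lower and 3 higher. The share of all genes at that looser limit was not counted. Among subunits of cytochrome c oxidase, Cox6b1, Cox6c and Cox6a1 fell by over 1 on the log2 scale. Cox6b1 had 177, 202 and 210.4 TPM at E4.5 and 73.2, 74.4 and 84.0 TPM at E5.5, Cox6c 1289, 1201 and 1151 TPM at E4.5 and 474, 584 and 546 TPM at E5.5 and Cox6a1 244, 262 and 254 TPM at E4.5 and 107, 114 and 129 TPM at E5.5. Ndufa3, Ndufb2, Atp5mpl and the testis form Cox6b2 each lost their call without some single library (Ndufa3 without E4.5 replicate 3, Ndufb2 without E5.5 replicate 3, Atp5mpl without E4.5 replicate 1, Cox6b2 without E4.5 replicate 1, E4.5 replicate 2 or E5.5 replicate 3). The 13 proteins encoded in the mitochondrial genome, which lie outside the autosomal rule and were not tested, were lower in every E5.5 library than in any E4.5 library; of the autosomal genes tested 61.6% had no overlap between the stages in either direction. From the mitochondrial genome, mt-Co1 and mt-Nd5 were chosen after their values were seen. For mt-Co1 they were 8187, 8123 and 7565 TPM at E4.5 and 3569, 4317 and 3908 TPM at E5.5. For mt-Nd5 they were 3421, 3320.5 and 3288 TPM at E4.5 and 1364, 1403 and 1397 TPM at E5.5.

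Cholesterol genes gave 4 falls and 0 rises among 18 (at an unadjusted p under 0.05, 12 lower and 1 higher), with a median of -0.47. Msmo1 and Cyp51, which act late in the pathway, fell from means of 54.0 to 14.2 TPM and 29.2 to 11.7 TPM. Insig1, the sterol sensor that restrains SREBP, fell with them, from 47.8, 45.9 and 50.7 TPM to 16.1, 15.4 and 15.2 TPM. Among 16 amino acid transporters and serine synthesis genes 4 fell and 1 rose. Psat1, of serine synthesis, fell from 152, 178 and 177 TPM to 33.3, 36.8 and 33.8 TPM, while Phgdh, a step before it, had 144, 156 and 157 TPM at E4.5 and 125, 138 and 135 TPM at E5.5. The arginine carrier Slc7a1 fell from a mean of 28.5 to 5.80 TPM and the heavy chain Slc3a2 from 247 to 103 TPM.

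D-type cyclins, which drive passage through G1, changed in both directions. Ccnd1 rose from 22.4, 23.4 and 22.5 TPM to 74.4, 78.9 and 74.8 TPM (log2 difference 1.70 ± 0.08, adjusted p = 1.2e-09), Ccnd2 rose from 0.215, 0.309 and 0.282 TPM to 3.31, 3.88 and 3.48 TPM, and Ccnd3 fell from 115, 107 and 126 TPM to 51.7, 44.8 and 59.3 TPM. Ccnd3 still had a mean of 51.9 TPM at E5.5, against the 76.0 TPM of Ccnd1. The inhibitor Cdkn1b rose from 7.98, 6.83 and 8.54 TPM to 20.1, 22.3 and 20.8 TPM. Of 13 genes tested 3 rose and 1 fell, beside 14.4% and 9.91% of all genes. DNA replication genes gave no call in either direction among 20 tested in limma, while 10 were higher and 4 lower at an unadjusted p under 0.05 and the median was 0.18. Without E4.5 replicate 3 or without E5.5 replicate 2, 1 of them (Gins2) was called higher.

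Of 66 tested replication-dependent histone genes, 42 rose and 0 fell, with a median log2 difference of 1.17, and at an unadjusted p under 0.05 limma gave 61 higher and 1 lower. With median-of-ratios rescaling 35 rose and 0 fell. Their share of the TPM was 1.81 to 1.89% at E4.5 and 3.80 to 4.35% at E5.5. Hist3h2ba had 8.99, 9.30 and 9.35 TPM at E4.5 and 125, 116 and 131 TPM at E5.5, Hist1h4i 18.9, 29.7 and 39.3 TPM at E4.5 and 187, 154 and 182 TPM at E5.5 and Hist4h4 8.59, 18.2 and 12.9 TPM at E4.5 and 69.4, 63.9 and 73.5 TPM at E5.5. These genes are near-identical copies within each histone class, so the level of a single copy is uncertain, and their messages lack poly(A) tails and were captured here because the libraries were made from total RNA. Cytosolic ribosomal protein genes gave 1 fall and 0 rises among 74 (at an unadjusted p under 0.05, 18 were lower and 8 higher), with a median of -0.04. Rps2, the gene that fell, had 1285, 1319 and 1354 TPM at E4.5 and 499, 536 and 545 TPM at E5.5 and has many processed copies.

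Germline genes of the kind that promoter methylation silences went both ways. Of 13 tested, 5 fell and 3 rose. Tex19.1, a mammal-specific germline protein gene, fell from 89.9, 96.9 and 83.2 TPM to 9.82, 10.2 and 10.4 TPM (log2 difference -3.03 ± 0.16, adjusted p = 5.0e-09), and Stk31 and Hormad1 fell from means of 10.5 to 0.424 TPM and 11.5 to 1.88 TPM. The RNA helicase gene Ddx4, known as Vasa, rose from 1.47, 1.75 and 1.46 TPM to 7.64, 8.66 and 8.62 TPM, and Sycp3, of the synaptonemal complex, from 3.08, 3.31 and 4.55 TPM to 13.6, 17.8 and 11.8 TPM. These rises were to low levels, and the E6.5 means were 5.33 and 11.1 TPM.

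Imprinted genes gave 9 rises and 4 falls among 25 tested, with a median of 0.63. Of all genes 14.4% rose and 9.91% fell, with a median of 0.15. Grb10, an adaptor that restrains growth factor signalling, rose from 14.2, 15.5 and 11.99 TPM to 135, 145 and 145 TPM (log2 difference 3.26 ± 0.11, adjusted p = 6.3e-11), and Mest from 11.3, 7.93 and 10.6 TPM to 79.4, 89.7 and 85.7 TPM. All 4 tested genes of the Dlk1-Meg3 domain rose: Rian had 137, 119 and 131 TPM at E4.5 and 562, 587 and 566 TPM at E5.5, Meg3 35.6, 52.9 and 52.1 TPM at E4.5 and 172, 161 and 158 TPM at E5.5, and Mirg and Dlk1 rose from means of 14.4 to 47.8 TPM and from 0 to 3.11 TPM. H19 had 531, 467 and 561 TPM at E4.5 and 599, 607 and 571 TPM at E5.5, and Igf2, its neighbour, 52.9, 55.5 and 52.0 TPM at E4.5 and 26.7, 25.2 and 29.6 TPM at E5.5. The falls were in Sfmbt2, Gab1, Slc38a4 and Phlda2, genes best known for imprinting or a role in the placental lineage, which moved in the direction of the trophectoderm markers. Sfmbt2 fell from 55.1, 48.3 and 50.1 TPM to 13.7, 14.5 and 16.0 TPM. The Phlda2 call (-1.08) was lost without E5.5 replicate 1. The part of trophectoderm in these falls was not tested.

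Bid, Pmaip1, Bak1 and Bcl2l11, pro-apoptotic members of the BCL2 family, rose. Of 14 p53 and BCL2 family genes tested 4 rose and 0 fell (7 higher and 2 lower at an unadjusted p under 0.05), with a median of 0.27. Bid had 3.92, 7.19 and 5.98 TPM at E4.5 and 18.0, 19.4 and 22.8 TPM at E5.5, and Pmaip1, encoding NOXA, 18.5, 13.8 and 16.4 TPM at E4.5 and 38.4, 42.4 and 43.0 TPM at E5.5. Bak1 and Bcl2l11, encoding BAK and BIM, passed at 1.03 and 1.01; both calls were lost under 3 rescalings and without E5.5 replicate 1, which left 2 rises, and Bak1 was also lost without E4.5 replicate 1 and Bcl2l11 without E4.5 replicate 3. Trp53 had 62.1, 64.3 and 72.0 TPM at E4.5 and 126, 130.2 and 133 TPM at E5.5, and the anti-apoptotic Mcl1 158, 142 and 136 TPM at E4.5 and 78.0, 83.5 and 89.2 TPM at E5.5, with log2 differences of 0.97 and -0.79. Cdkn1a, a target of p53, had 2.65, 4.10 and 2.01 TPM at E4.5 and 2.12, 1.95 and 2.22 TPM at E5.5. Among 6 tested genes of MHC class I presentation 2 rose and 1 fell: H2-D1, a classical class I heavy chain, fell from 51.6, 48.0 and 53.6 TPM to 5.67, 6.55 and 9.32 TPM, and the light chain gene B2m had 8.67, 5.07 and 7.54 TPM at E4.5 and 8.29, 8.53 and 9.08 TPM at E5.5. Reads of H2 paralogs cannot be assigned with certainty.

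Immediate early genes, which are induced within minutes by growth factors or stress, were high at E4.5. Of 12 tested, 9 fell and 0 rose (10 lower and 0 higher at an unadjusted p under 0.05), with a median log2 difference of -3.30. Fos, a subunit of AP-1, had 389.6, 389 and 419 TPM at E4.5 and 2.78, 4.14 and 3.43 TPM at E5.5, a 116-fold lower mean at E5.5 (log2 difference -6.50 ± 0.13, adjusted p = 5.7e-13). Fosb had 212, 173 and 160.2 TPM at E4.5 and 2.698, 2.67 and 3.05 TPM at E5.5, and Egr1 59.3, 68.1 and 62.7 TPM at E4.5 and 2.59, 2.30 and 2.38 TPM at E5.5. Jun fell from 84.3, 84.1 and 90.4 TPM to 12.8, 12.7 and 13.04 TPM and Dusp1, a phosphatase of MAP kinases, from 101, 99.95 and 104 TPM to 7.81, 8.47 and 7.02 TPM. Ier2 passed at a log2 difference of -1.003, a call lost without E4.5 replicate 1, E4.5 replicate 2 or E5.5 replicate 1.

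Fos, Egr1 and Fosl1 had their highest mean of the 5 stages at E4.5. Fos had means of 5.77 TPM at E3.5, 399 TPM at E4.5, 3.45 TPM at E5.5 and 8.61 TPM at E6.5. For Egr1 the means were 2.19, 63.4, 2.42 and 3.56 TPM, and for Fosl1 0.0533, 19.12, 0.505 and 2.698 TPM. The E4.5 epiblast was the stage prepared by immunosurgery, warm trypsin and picking of single cells, and the part of that handling cannot be told apart from the stage. Heat shock and stress genes gave 5 falls and 0 rises among 13 (9 lower and 3 higher at an unadjusted p under 0.05). Hspb1, a small heat shock protein gene, fell from 259, 223 and 235 TPM to 18.2, 18.9 and 17.8 TPM, and Ddit3, encoding CHOP, from 19.2, 23.5 and 18.8 TPM to 2.00, 4.18 and 3.09 TPM. The heat-inducible Hspa1a and Hspa1b did not follow: Hspa1a had 11.3, 8.32 and 6.39 TPM at E4.5 and 13.4, 14.8 and 14.8 TPM at E5.5, and Hspa1b 12.9, 14.7 and 11.4 TPM at E4.5 and 18.4, 23.1 and 21.5 TPM at E5.5. The Hsph1 call (-1.03) was lost without E4.5 replicate 1 or E5.5 replicate 3.

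**Figure D4:**
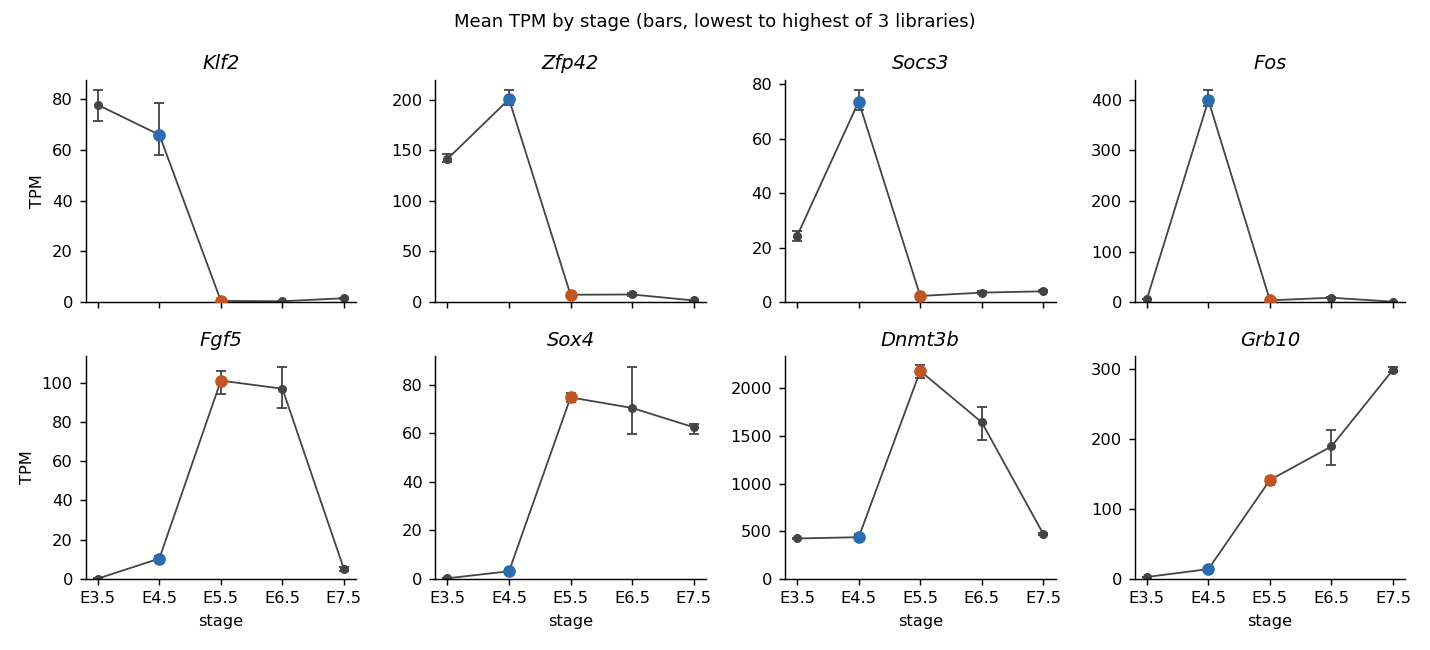
Mean TPM (y axis) of 8 genes at the 5 stages (x axis), with bars from the lowest to the highest of 3 libraries; blue marks E4.5 and orange E5.5. Klf2 is high at E3.5 and E4.5 and nearly gone at E5.5, Fos and Socs3 peak at E4.5, and Fgf5, Sox4, Dnmt3b and Grb10 are higher at E5.5.

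The Dusp1 promoter (chr17:26508423-26508722, minus strand, build GRCm38.p6) is shown as that of a gene that fell and holds the cAMP response element, in capitals, 143 to 136 bases before the start. At least 1 window held TGACGTCA in 3.94% of the tested genes with a promoter in the table and in 2.34% and 2.33% of those that rose and fell; the same letters stand in the window of Foxd3, which rose. Of the 12578 genes tested, 8490 had a promoter in the table by symbol, and a match of letters is a description only.
Dusp1: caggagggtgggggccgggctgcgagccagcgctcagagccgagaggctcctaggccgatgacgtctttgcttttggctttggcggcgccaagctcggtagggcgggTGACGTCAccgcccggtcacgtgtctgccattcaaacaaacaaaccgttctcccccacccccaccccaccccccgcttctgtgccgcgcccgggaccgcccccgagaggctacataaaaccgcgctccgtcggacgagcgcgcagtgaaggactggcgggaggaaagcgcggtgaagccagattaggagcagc

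The 12 protein-coding genes with the largest rises were Apoa1, Afp, Ttr, Dbn1, Apoa4, Rbp4, Apob, Cer1, Slc13a4, Sema6a, Nr1h5 and Robo1, with log2 differences from 4.71 to 7.75. Apoa1, Afp, Ttr, Apoa4, Rbp4, Apob and Cer1 are secreted products known from visceral endoderm, whose markers summed to 1606 to 1734 TPM at E5.5 and 1024 to 1120 TPM at E4.5; the part of that tissue was not tested. Afp, Rbp4, Cer1 and Nr1h5 were listed at 0 in every E4.5 library. The others include genes of cell shape and guidance. Dbn1, encoding the actin-binding drebrin, had 2.97, 1.51 and 2.49 TPM at E4.5 and 145, 155 and 150.1 TPM at E5.5, Sema6a, a transmembrane semaphorin, 1.85, 2.17 and 4.07 TPM at E4.5 and 90.7, 99.0 and 97.3 TPM at E5.5, and the guidance receptor gene Robo1 0.452, 0 and 0.270 TPM at E4.5 and 30.2, 32.5 and 30.7 TPM at E5.5. All 3 were still high at E6.5, with means of 135, 65.8 and 27.2 TPM. Nr1h5 had 20.7, 34.4 and 22.8 TPM at E5.5 and was listed at 0 TPM at E6.5.

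The 12 largest falls were in Gsta1, BC051665, Lgals3, Khdc3, Fos, Tspan8, BC053393, Gm3776, Gsta2, Serpinb6c, Slc1a1 and Fam25c, with log2 differences from -5.96 to -7.23. Gsta1, a glutathione transferase gene, had 145, 152 and 152 TPM at E4.5 and was listed at 0 in all E5.5 libraries; Gsta2 and Gm3776 are near-identical copies of it, so the split among the 3 is uncertain. Khdc3, of the maternal subcortical complex of the egg, had 108, 87.8 and 86.0 TPM at E4.5, after a mean of 644 TPM at E3.5, and was under 0.01 TPM at E5.5. Lgals3, encoding galectin 3, fell from 127, 146 and 159 TPM to 0.469, 0.337 and 0.297 TPM, with a mean of 23.7 TPM at E3.5, so its peak was at E4.5. Tspan8, a tetraspanin gene, fell from 143, 157 and 146 TPM to 0.739, 1.02 and 0.620 TPM, and the glutamate carrier gene Slc1a1 from 58.4, 64.4 and 77.5 TPM to 0, 0.194 and 0 TPM. Outside the largest folds, Fabp3, a fatty acid binding protein gene, fell from 1409.6, 1339 and 1351 TPM to 34.3, 43.4 and 37.6 TPM (log2 difference -5.12 ± 0.12, adjusted p = 2.9e-12), and Actb had 4858, 4844 and 4698 TPM at E4.5 and 2058, 2352 and 2391 TPM at E5.5 (log2 difference -1.09 ± 0.09, adjusted p = 2.9e-07).

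Of 314 long non-coding RNAs tested 62 rose (19.7%) and 48 fell (15.3%), beside 14.4% and 9.91% of all genes tested. The largest rises were in Gm15444, Trerf1, Rian, Gm5914 and 2610307P16Rik, and the largest falls in Gm46332, Gm40977, Platr11, Gm48168 and Gm32885. Membership of the class came from the annotation alone. Trerf1, Rian and 2610307P16Rik were annotated as processed transcript, and whether Trerf1 codes for protein was not examined. Gm46332 had 59.1, 44.8 and 83.0 TPM at E4.5 and was listed at 0 at E5.5. Platr11, of a family named for its link to pluripotency, had 12.97, 11.5 and 14.9 TPM at E4.5 and 0, 0.640 and 0.769 TPM at E5.5 and was listed at 0 TPM at E3.5. Gm15444, annotated as antisense, had 28.6, 16.1 and 39.9 TPM at E5.5 and 0 at E4.5 with an SE of 1.13, and since the strand used in counting was not given, its reads and those of the gene opposite cannot be told apart. Gm5914 lost its call when the E4.5 and E5.5 libraries were fitted alone. Structural RNAs had the largest differences in TPM. Rn7sk, the RNA of the 7SK particle that holds back transcription elongation, rose from 3553, 3885 and 4489 TPM to 11849, 10676 and 12165 TPM (log2 difference 1.54 ± 0.12, adjusted p = 1.4e-07). Rn7s1 and Rn7s2, near-identical RNAs of the signal recognition particle, had means of 14206 to 22380.3 TPM and 14043 to 21988 TPM and did not pass, and Gm26917, CT010467.1, Gm10925 and Gm23935, annotated as long intergenic RNA, ribosomal RNA, unprocessed pseudogene and microRNA, had log2 differences of 0.45, -0.51, -0.69 and 0.56 without a call.

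Long genes shifted upward at this step, the one step at which the fragmentation setting changed. For protein-coding genes the median log2 difference was 0.02 in 251 genes with under 1000 exonic bases, 0.07 in 1538 genes of 2000 to 3000 bases and 0.25 in 3498 genes of over 6000 bases. In the shortest class 19.5% of genes rose and 15.5% fell, and in the longest 16.7% rose and 7.09% fell. Steps without a change of fragmentation had trends of their own: from E3.5 to E4.5 the median ran from -0.03 in the shortest to -0.17 in the longest class, from E5.5 to E6.5 from 0.07 to -0.14, and from E6.5 to E7.5 from 0.04 to 0.45. Fragmentation and stage cannot be told apart here. After the trend over length was removed, class medians lay between -0.03 and 0.02, and 1488 genes rose and 1471 fell.

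**Figure D5:**
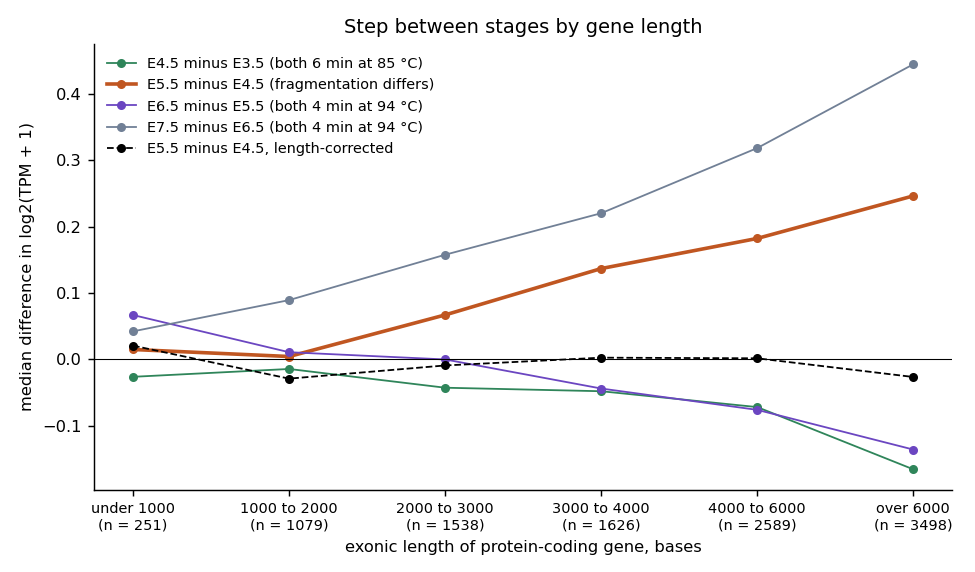
Median difference in log2(TPM + 1) (y axis) of protein-coding genes in 6 classes of exonic length (x axis, number of genes in brackets) for 4 steps between stages and for the implantation step after correction for length. From E4.5 to E5.5 the median climbs from 0.02 in the shortest class to 0.25 in the longest, and the larger trend of 0.04 to 0.45 lies between E6.5 and E7.5, where the fragmentation setting was the same.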

How the data were processed

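RNA was sequenced from mouse embryos given in the labels as wild-type CD-1, while the methods also name a Pdgfrα:H2B-GFP line, and 15 in vivo libraries (3 of E3.5 inner cell mass and 3 of epiblast at each of the 4 later stages) were used; 12 columns of cultured cells were not used here. Libraries were made from total RNA (RIN above 7) with a stranded pico-input kit, depletion of ribosomal cDNA and 13 PCR cycles. Adapters were removed by the authors with cutadapt 2.4, STAR placed the reads on mm10, and StringTie with GENCODE VM19 gave the TPM; the deposited TPM values sum to 1000000 per library, so the depth and its precision are unknown and no count test can be run on them, although the study tested counts. The strand setting of the counting is not given in the sources used here. Columns were tied to samples by their names. Lines of 12 repeated gene identifiers were summed, and empty cells in 55 lines were read as 0. Biotype, chromosome and exonic length came from GENCODE vM21, which held 54409 (99.9%) of 54446 genes.

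Log2(TPM + 1) of the 12578 autosomal genes with TPM above 2 in at least 3 of 6 libraries was fitted with limma 3.58.1 (R 4.3.3) over all 15 libraries, with stage as the only term. P-values are two-sided and Benjamini-Hochberg adjusted over the 12578 genes, and a call needs an adjusted p below 0.05 and a log2 difference over 1 in size. On simulated data 188 of 200 changed genes were called, and 2 unchanged ones. The alternatives were another pseudocount, no filter, protein-coding genes alone, other scalings, correction for gene length, a mean-variance trend, a replicate term, the 6 libraries alone and each library left out. Genes named by rule are members of fixed lists or genes with the largest changes. The latter are the 12 protein-coding and 5 long non-coding genes with the largest log2 differences in each direction. These had no overlap between the stages and a mean of at least 10 TPM in the higher stage. The 5 genes with the largest TPM differences in each direction were added. Outside these rules, mt-Co1, mt-Nd5 and the X-linked genes not in the lists were chosen after their values were seen. The members and lists were chosen with earlier results of these data known. Promoters came from RefSeq (GRCm38.p6). Samples of the series that measure DNA methylation, and other samples, were not used. Values of some list members are not reported here.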

Additional observations from a re-analysis of the deposited data

How the results depend on the processing

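Counts of rises and falls stayed within 1.5 times of 1815 and 1246 in all 15 alternatives, and no gene was called in the opposite direction in any of them. Rises ranged from 1488 (length-corrected) to 2189 (no filter on low values) and falls from 1033 (protein-coding genes alone, with 10581 tested) to 1518 (no filter). With 1 library left out at a time, 1805 to 1898 genes rose and 1218 to 1272 fell. A pseudocount of 0.1 gave 2069 and 1347, median-of-ratios rescaling 1574 and 1450, and TPM relative to autosomal protein-coding genes without histones 1721 and 1317. The replicate numbers pair nothing by the labels. Same-numbered libraries had correlations of -0.277, -0.0744 and -0.209 between their deviations from the stage means. Such deviations cancel out within a stage, so these values cannot show whether same-numbered libraries were prepared together. The fit with a replicate block gave 1811 and 1246. Of 647 named genes tested, 261 were called, 235 of them in every alternative, 26 lost the call in at least 1, 30 others gained one, and 0 reversed. Among the lists, leaving out E5.5 replicate 1 or rescaling cut the p53 and BCL2 rises from 4 to 2, and rescaling cut the DNA methylation rises from 2 to 1. Read depth is unknown, so how far it limits genes of low level could not be measured.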

Other observations

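X-linked genes lie outside the autosomal rule, and the genes named here were chosen after their values were seen. Sox3, a SOX factor of the early epiblast and neural tissue, had 3.25, 4.91 and 6.37 TPM at E4.5 and 50.6, 56.2 and 58.0 TPM at E5.5. Gpc3, a cell-surface proteoglycan gene, had 14.4, 10.5 and 12.6 TPM at E4.5 and 202, 219.6 and 217 TPM at E5.5. Pgk1, the X-linked enzyme gene of glycolysis, had 267, 278 and 279 TPM at E4.5 and 612, 669 and 653 TPM at E5.5.

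Rlim, a ubiquitin ligase gene that acts in X inactivation, had 133, 117 and 121 TPM at E4.5 and 50.4, 55.9 and 54.8 TPM at E5.5. Tmsb4x, which encodes an actin-binding peptide, had 236, 229 and 226 TPM at E4.5 and 14.7, 13.7 and 17.4 TPM at E5.5, and Slc6a14, an amino acid carrier gene, 54.9, 49.97 and 51.3 TPM at E4.5 and 0.123, 0 and 0 TPM at E5.5. Plac1, a gene of the placental lineage, had 27.0, 22.6 and 28.8 TPM at E4.5 and 0.197, 0.619 and 0.410 TPM at E5.5, and it belongs to the trophectoderm markers that were lower at E5.5.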
